A study of Homo sapiens with 3 samples.

Results

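DEAD-box and DEAH-box RNA helicases were examined through sequencing of poly(A)-selected RNA from HEK293T, an established line of human kidney origin into which SV40 large T antigen was introduced. The members were the protein-coding genes on chromosomes whose symbols begin with DDX or DHX and a number, without DDX58 and DHX58, and there were 53 of them among 67008 gene models, 38 DDX and 15 DHX. The DDX24 knockdown group held 2 libraries, the hairpin 1 library (shDDX24-1) and the hairpin 2 library (shDDX24-2), each from cells that carried its short hairpin RNA in the pLKO.1 lentiviral vector. The control group held 1 library, from cells infected with pLKO.1 and labelled wild type. The 3 libraries carry a time label of 72 hours, and the virus dose in the protocol was 5 particles for each cell, in medium with polybrene at 8 µg/mL. The hairpin 1 and hairpin 2 libraries held 36738685 and 37828270 counts and the control library held 52198744. Nothing in the labels says whether the knockdown cultures were raised apart, and they differ in hairpin as well, so the spread within the group mixes these sources.

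RNA helicases of both families use ATP to open RNA duplexes or to strip proteins from RNA. DEAD-box proteins open short duplexes locally, whereas DEAH-box proteins move along a strand, and several of them are switched on by partners with a G-patch. Both families are named after motif II of the helicase core, the acidic box that binds magnesium and ATP, written Asp-Glu-Ala-Asp in the DEAD family and Asp-Glu-Ala-His in the DEAH family. Their members act in ribosome assembly, splicing, mRNA export, translation and decay. DDX24, the gene targeted here, is a nucleolar DEAD-box protein whose yeast counterpart works in assembly of the large ribosomal subunit.

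The motif II codons show how closely the symbols follow this box, and how alike the coding sequence of paired genes can be. Each stretch below was read from the longest coding transcript of the gene in GENCODE release 29, 5′ to 3′, and the capitals mark the 12 bases that encode the box.
DDX24: ctggtagtgGATGAGGCTGACcggatggtt
DDX5: cttgtccttGATGAAGCAGATagaatgctt
DDX17: cttgtattgGACGAAGCTGACagaatgctt
DDX20: tttattcttGATGAAGCAGATaagctttta
DDX19A: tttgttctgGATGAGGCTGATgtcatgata
DDX19B: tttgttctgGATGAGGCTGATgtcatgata
DDX21: gttgtcctgGATGAAGTGGACcagatgttg
DDX50: gttgtgcttGATGAAGTGGATcagatgtta
DDX39A: tttgtgctgGACGAGTGTGACaagatgctg
DHX15: ataattcttGATGAGGCTCATgagaggaca
DHX9: gtaattgtaGATGAAATACATgaaagagat
DHX36: atcgtacttGATGAAATCCATgaaagaaat
On GRCh38 these stretches lie in single exons, DDX24 at chr14:94060580-94060609 (minus strand), DDX5 at chr17:64503236-64503265 (minus), DDX17 at chr22:38494934-38494963 (minus) and DDX20 at chr1:111760530-111760559 (plus). DDX19A lies at chr16:70366192-70366221 and DDX19B at chr16:70329399-70329428, both on the plus strand. DDX21 lies at chr10:68967119-68967148 (plus), DDX50 at chr10:68913492-68913521 (plus) and DDX39A at chr19:14410999-14411028 (minus). DHX15 lies at chr4:24556314-24556343 (minus), DHX9 at chr1:182867008-182867037 (plus) and DHX36 at chr3:154304921-154304950 (minus).

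Among the 38 DDX members, 29 carried codons for the DEAD box itself. The export helicases DDX39A and DDX39B carried DECD, the nucleolar pair DDX21 and DDX50 carried DEVD, and DDX52 carried DESD. Among the 15 DHX members, 8 carried DEAH, 4 carried DEVH (DHX29, DHX30, DHX34 and DHX57) and 2 carried DEIH (DHX9 and DHX36). No box was found by the search in DDX11, DDX28, DDX60, DDX60L or DHX32. This says only that their coding sequence did not match the letters searched at the spacing the search required. The DDX19A and DDX19B stretches were identical over all 30 bases, whereas DDX5 and DDX17 shared 24 of 30 and DDX21 and DDX50 shared 26 of 30.

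Not every member could be counted. The targeted gene, DDX24, is ENSG00000089737.17 on the minus strand of chromosome 14, from 94048287 to 94081212. It had 0 counts in both knockdown libraries and in the control, so the knockdown itself could not be read from these counts. DDX51, a ribosome assembly factor, DDX39B, a helicase of mRNA export and splicing, DHX16, a splicing helicase, and DDX43, a germ cell gene, were also at 0 in all 3 libraries. That made 5 members at 0, 4 DDX and 1 DHX. A count of 0 allows up to 0.0812 and 0.0809 CPM (counts scaled to library size with TMM factors) in the hairpin 1 and hairpin 2 libraries and up to 0.0568 CPM in the control, for counting error only.

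A gene model of the same symbol on another scaffold was present for 6 members, and 4 of those 6 (DDX24, DDX51, DDX39B and DHX16) were at 0, against 1 of the 47 members without such a model (DDX43). Among all protein-coding genes on chromosomes, 72.2% of the 1129 with such a model and 15.9% of the 18836 without were at 0. The exceptions were DDX52 and DHX36, which had a second model and were counted. The scaffold models of DDX24 and DDX51 were at 0 too, the 7 of DHX16 together held 2 counts in each library, and the 7 of DDX39B held 2 and 1 counts with the hairpins and 1 in the control. How reads that match several places were treated is not given in the sources used here, and its part in the zeros was not tested.

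Below the filter on low counts but above 0 in at least 1 library were DDX4, DDX53, DDX60L and DDX3Y. DDX4 and DDX53 are germ cell helicases, and each had at most 3 counts in any library. DDX60L, a relative of the interferon-induced DDX60, had 1 count in each. DDX3Y is on chromosome Y and its values are not given. The remaining 44 members, 30 DDX and 14 DHX, passed the filter and were tested, and 40 of them were above 20 CPM in every library.

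The labelled cell type was compared with its markers. Of 8 genes usually found in HEK293T cells, 7 were at 1 CPM or more in all libraries, and LHX1 was near 0, at 0.19 and 0.054 CPM in the hairpin 1 and hairpin 2 libraries and 0.076 in the control. Of 9 markers of blood, liver, fibroblast and keratinocyte cells, CD3E, KRT5 and KRT14 were at 0 in all libraries and COL1A1 and COL3A1 were above 1 CPM in all. The summed level of these 9 was 37.7 and 31.2 CPM in the hairpin libraries against 30.9 CPM in the control, and its part in the results below was not tested. Of 8 germ cell markers, TEX14 alone reached 1 CPM in all libraries. DDX4, DDX25, DDX43 and DDX53 on that list are members themselves and so no separate check. The others below 1 CPM were DAZL, MAEL and SYCP3.

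Levels were compared between genes per kilobase of the longest annotated transcript. In these bulk libraries, fewer cells with a transcript and less of it per cell cannot be told apart. DDX5 and DHX9, both partners of transcription factors, and DDX21, an rRNA-binding helicase of the nucleolus, stood highest. DDX5 was at 213.5 and 240.2 CPM per kilobase in the hairpin 1 and hairpin 2 libraries and 215 in the control. DHX9 was at 204.5 and 223 CPM per kilobase in the hairpin libraries and 206 in the control. DDX21 was at 194 and 233 CPM per kilobase in the hairpin libraries and 195 in the control. By this measure DDX5 was the highest in every library, though the ranges of the 3 genes overlapped. The order of DHX9 and DDX21 differed between libraries. Next came DDX17, the paralog of DDX5, DDX3X, a translation factor, DDX1, a subunit of the tRNA ligase complex, and DHX15, a helicase of splicing and ribosome assembly, at means of 162.5, 140.5, 120.7 and 112 CPM per kilobase over the 3 libraries. This order depends on the transcript used for the length. The longest annotated transcript was 7.473 kb for DDX3X and 3.558 kb for DDX5. In their longest coding transcripts a window of 100 bases had only 3138 and 2455 start positions. Levels per kilobase of the coding transcripts were not computed, and DDX3X could rank higher by them. The median over the tested members was 30.8 CPM per kilobase for DDX and 23.2 for DHX genes.

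**Figure D1:**
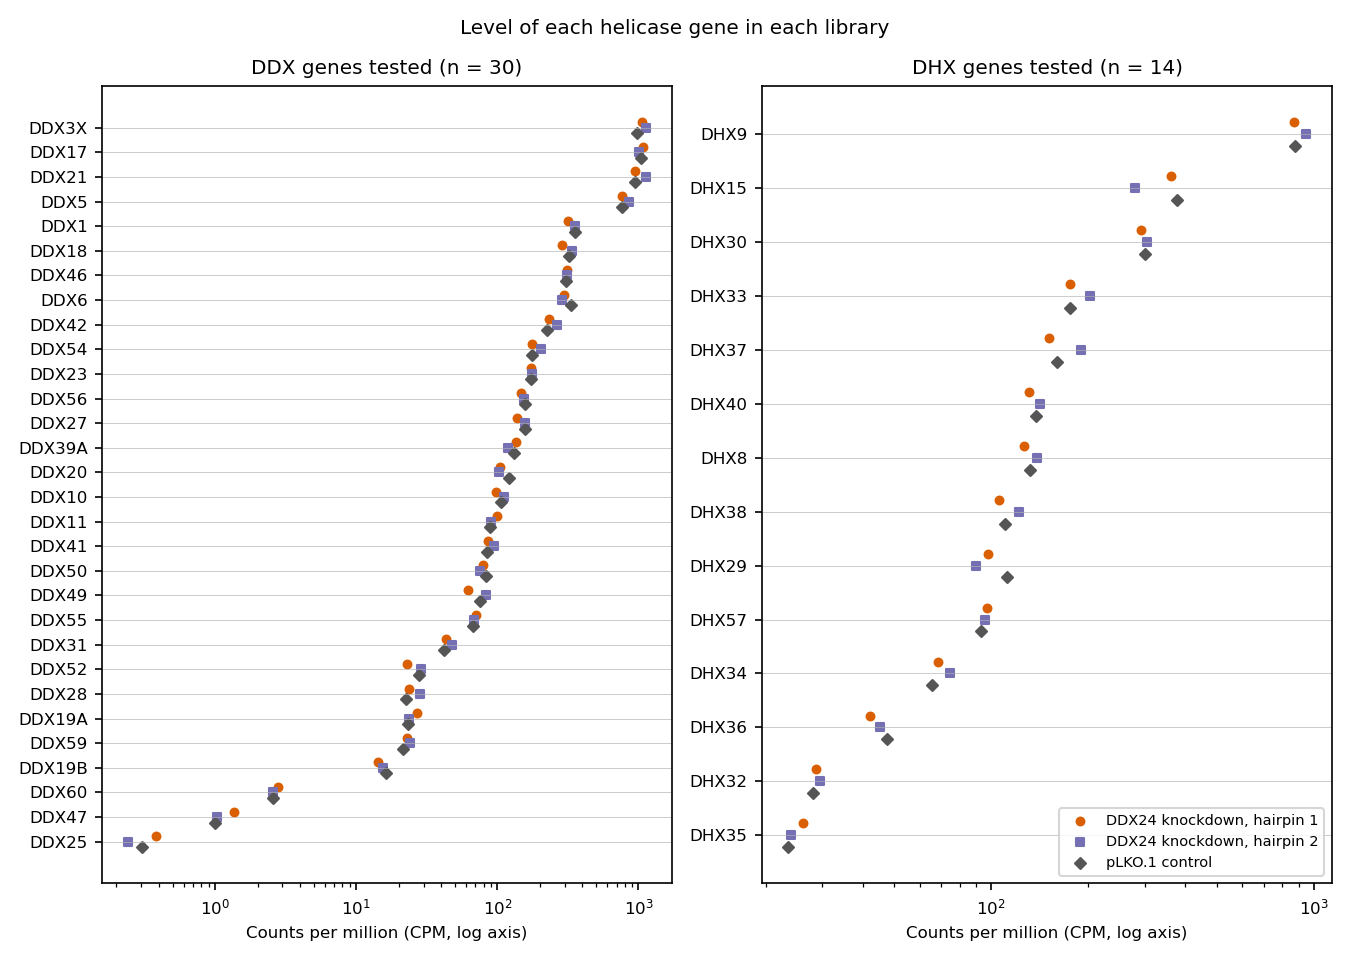
Level of each tested gene in CPM (log axis) in the hairpin 1 (circles), hairpin 2 (squares) and control (diamonds) libraries, DDX on the left and DHX on the right. The points of a gene lie close together over a range that starts under 1 CPM with DDX25. The highest gene was DDX17 in the hairpin 1 library (1084 CPM), DDX3X in the hairpin 2 library (1127 CPM) and DDX17 in the control (1047 CPM).

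Together the members took 0.944% and 0.978% of all counts in the hairpin 1 and hairpin 2 libraries and 0.959% in the control. The DDX genes summed to 6811 and 7285 CPM in the hairpin libraries, against 6842 CPM in the control. The DHX genes summed to 2569.7 and 2683 CPM in the hairpin libraries, against 2634 CPM in the control. By these scaled sums the control lay between the knockdown libraries for both families. The knockdown means were 7048 ± 335 CPM for DDX and 2626 ± 80.0 CPM for DHX genes (SD, n = 2 each). By share of all counts this held for DDX genes, at 0.685% and 0.714% with the hairpins and 0.692% in the control. It did not hold for DHX genes, at 0.259% and 0.263% with the hairpins and 0.266% in the control.

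The effect of DDX24 knockdown on each member was tested with edgeR's quasi-likelihood test over all 17713 genes. None of the 44 members passed in either direction at an adjusted p of 0.05, where 0.0113% of all genes tested were called lower and 0% higher. The smallest adjusted p among members was 0.999, and 0 members had an unadjusted p under 0.05, against 3.9% of all genes. Of the 7793 genes at a mean of 20 CPM or more, 151 had one. DESeq2 and limma-voom called 0 members as well, and 3 and 1 of all 17713 genes, so a count of 0 among 44 does not set the members apart. The log2 fold changes of the members lay between -0.26 (DHX29) and 0.24 (DDX47), and 0 members exceeded 0.5 in size, against 11.7% of all genes tested and 0.488% of the 7793 genes at a mean of 20 CPM or more. The SE was 0.13 to 0.19 for the members above 20 CPM, so shifts of the size seen here could not be told from the variation in the fit. Each gene has 1 residual degree of freedom, and edgeR draws its variation toward that of other genes. The SE is therefore not the gene's own spread between the hairpins. DDX46, with a log2 ratio of -0.007 between the hairpin libraries, still had an SE of 0.13. The lone control is assumed to vary likewise.

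**Figure D2:**
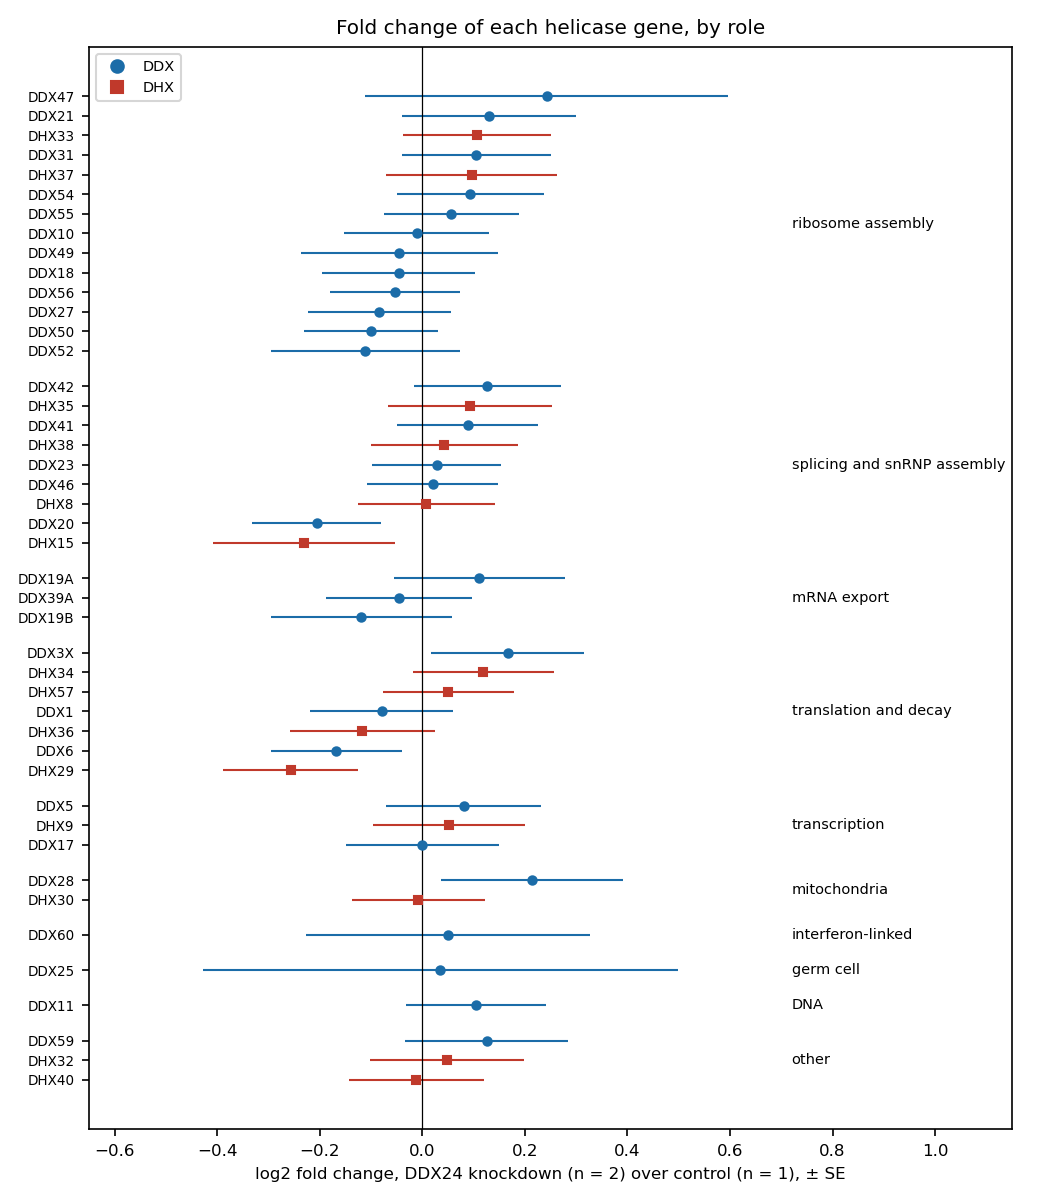
Log2 fold change of DDX24 knockdown (n = 2) over control (n = 1) with its SE for the 44 tested genes, DDX as circles and DHX as squares, grouped by role. All lie between -0.26 and 0.24, and DHX29, DHX15 and DDX20 lie lowest.

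By direction alone, 12 of 30 DDX members were higher and 5 lower than the control with both hairpins, and 13 were mixed. Of 14 DHX members 4 were higher and 3 lower with both, and 7 were mixed. Over all genes tested 31.9% were higher and 32% lower with both. At a mean of 20 CPM or more the shares were 37.5% and 17.5% for members, beside 34.7% and 28.6% of all genes at that level. The ratios of the hairpins share the control library. The median log2 ratio was 0.01 with hairpin 1 and 0.04 with hairpin 2 for DDX members, and -0.05 and 0.06 for DHX members, beside 0.003 and -0.004 over all genes tested. Over the genes at a mean of 20 CPM or more it was -0.006 with hairpin 1 and 0.03 with hairpin 2, beside -0.009 and 0.04 for the members at that level. Exact intervals of the counts cover counting error only. With hairpin 1 they lay above 0 for 6 of 44 members and below 0 for 18, beside 20.5% and 19.8% of all genes tested. At a mean of 20 CPM or more the shares with hairpin 1 were 15% above and 42.5% below for members, beside 28.7% and 31.5% of all genes at that level. With hairpin 2 they lay above 0 for 18 members and below 0 for 7, beside 23.8% and 21.5% of all genes tested. At a mean of 20 CPM or more the shares with hairpin 2 were 45% above and 17.5% below for members, beside 40.9% and 27.0% of all genes at that level. They left out 0 on the same side with both hairpins for 1 member above the control (DDX3X) and 4 below it (DDX20, DDX6, DHX15 and DHX29), against 10.2% of all genes above and 9.13% below. These named members are all above 20 CPM, and interval width depends on the count. The shares with both hairpins over genes at a mean of 20 CPM or more are not given here.

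Ribosome assembly is the role of 16 members, of which 14 were tested, with 3 higher, 2 lower and 9 mixed with both hairpins. DDX50, the nucleolar paralog of DDX21, was at 79.5 and 75.01 CPM in the hairpin libraries and 82.8 in the control. DDX56, a nucleolar helicase of the large subunit, was at 148 and 154 CPM in the hairpin libraries and 157 in the control. Both were lower than the control with each hairpin, by small amounts, but the exact intervals held 0 for DDX50 with hairpin 1 and for DDX56 with hairpin 2. DDX55, which binds large-subunit precursors, was at 70.2 and 68.6 CPM with the hairpins against 66.7 in the control. DDX31, another nucleolar helicase, was at 43.2 and 47.4 CPM with the hairpins against 42.1 in the control. These were higher with each hairpin, but the exact intervals of the counts held 0 for DDX55 with both hairpins and for DDX31 with hairpin 1. DDX47, a helicase of early rRNA processing, was at 1.35 and 1.02 CPM with the hairpins against 1.004 in the control, the lowest level in the group, from 38 to 53 counts.

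The larger differences in the ribosome assembly group were between the knockdown libraries. DDX49 was at 62.1 CPM in the hairpin 1 library and 83.4 in the hairpin 2 library, and the control lay between at 75.1. DHX37, a helicase that releases U3 snoRNA from small-subunit precursors, was at 151 CPM in the hairpin 1 library and 189.8 in the hairpin 2 library, against 159.6 in the control. DDX21 was at 939 CPM in the hairpin 1 library and 1127 in the hairpin 2 library, against 943 in the control. Here the hairpin 1 library lay near or below the control and the hairpin 2 library above it. By direction alone, DDX10, DDX18, DDX27, DDX52, DDX54 and DHX33 were likewise lower than the control with hairpin 1 and higher with hairpin 2. Of these, only DDX10 and DDX18 had exact intervals that left out 0 with both hairpins. The intervals held 0 with hairpin 2 for DDX27 and DDX52 and with hairpin 1 for DDX54 and DHX33.

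In splicing and the assembly of its small nuclear ribonucleoproteins, 9 of 10 members were tested, with 5 higher, 2 lower and 2 mixed with both hairpins. DDX20 (Gemin3), a subunit of the SMN complex, was at 105 and 103 CPM in the hairpin libraries, against 120.3 in the control. The knockdown mean was 104 ± 1.33 CPM (SD, n = 2), below the control in both libraries, with a log2 fold change of -0.21 ± 0.13 (SE, edgeR adjusted p = 0.999). DHX15, which takes apart the spliceosome after splicing, was at 361 CPM in the hairpin 1 library and 279 in the hairpin 2 library, against 376 in the control. The knockdown mean, 320.4 ± 58.1 CPM (SD, n = 2), gave a log2 fold change of -0.23 ± 0.18 (SE, edgeR adjusted p = 0.999). Against the control, hairpin 1 gave a log2 ratio of -0.06 and hairpin 2 one of -0.43, so the library of hairpin 2 carried most of it. DDX42, a relative of the branch-site helicase DDX46, was at 231 and 264 CPM with the hairpins against 227 in the control, a log2 fold change of 0.13 ± 0.14 (SE, edgeR adjusted p = 0.999).

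The other splicing helicases lay closer to the control. DDX46, which acts with the U2 particle, was at 314 and 313 CPM with the hairpins and 309 in the control. DHX35 was at 26.1 and 24.0 CPM with the hairpins and 23.5 in the control. DHX38, whose yeast form Prp16 acts before the second splicing step, was at 106 and 122 CPM with the hairpins and 111 in the control. DHX8, the relative of DHX38 that releases spliced mRNA, was at 126 and 139 CPM with the hairpins and 132 in the control. DDX23, of the U5 particle, and DDX41 had log2 fold changes of 0.03 and 0.09.

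Of the mRNA export helicases 3 of 4 were tested. DDX39A was at 136 and 118 CPM with the hairpins and 131 in the control, which lay between them. DDX19A and DDX19B, which release proteins from mRNA at the nuclear pore, lay on opposite sides of the control. DDX19A was at 26.8 and 23.6 CPM with the hairpins against 23.4 in the control, and DDX19B was at 14.3 and 15.6 CPM with the hairpins against 16.2 in the control. They share coding sequence, as the identical stretches above show, and reads from shared parts cannot be assigned to either with certainty.

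In translation and mRNA decay 7 of 8 members were tested, and the member with the smallest unadjusted p of all, DHX29, is among them. DHX29, which helps the small ribosomal subunit scan structured leaders, was at 97.6 and 89.7 CPM in the hairpin libraries, against 112 in the control. The knockdown mean was 93.6 ± 5.61 CPM (SD, n = 2), with a log2 fold change of -0.26 ± 0.13 (SE, edgeR adjusted p = 0.999, rank 1328 of 17713 by p). DDX6, a repressor of translation and activator of decapping, was at 299 and 289.6 CPM in the hairpin libraries against 331 in the control, a log2 fold change of -0.17 ± 0.13 (SE, edgeR adjusted p = 0.999). Both were lower than the 1 control library with each hairpin. DDX3X was the opposite, at 1052 and 1127 CPM in the hairpin libraries against 971 in the control, a log2 fold change of 0.17 ± 0.15 (SE, edgeR adjusted p = 0.999).

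DHX36, which unwinds G-quadruplexes, was at 42.2 and 45.4 CPM with the hairpins against 47.5 in the control, a log2 fold change of -0.12 ± 0.14 (SE, edgeR adjusted p = 0.999). DHX34, a factor of nonsense-mediated decay, was at 68.5 and 74.4 CPM with the hairpins against 65.8 in the control, a log2 fold change of 0.12 ± 0.14 (SE, edgeR adjusted p = 0.999). DHX57 was at 97.4 and 95.6 CPM with the hairpins against 93.2 in the control. DDX1 was at 314 CPM in the hairpin 1 library and 353 in the hairpin 2 library, against 353 in the control. In this role 3 members were higher, 3 lower and 1 mixed with both hairpins.

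The transcription coregulators were mixed without exception. DDX5 was at 759.6 and 855 CPM with the hairpins against 763 in the control, and its paralog DDX17 at 1084 and 1009.9 CPM with the hairpins against 1047 in the control. DHX9 was at 867 and 945 CPM with the hairpins against 874 in the control. Per kilobase DDX5 exceeded DDX17 by 1.27 and 1.53 times in the hairpin libraries and by 1.32 times in the control. DDX21 exceeded DDX50 by 6.20 and 7.89 times with the hairpins and by 5.99 times in the control, and DHX9 exceeded DHX36 by 32.6 and 33.1 times with the hairpins and by 29.2 times in the control. DHX8 stood below DHX38, at ratios of 0.88 and 0.84 with the hairpins and 0.88 in the control. In these 4 pairs the order of the levels was the same in all 3 libraries. For DDX19A over DDX19B it was not, with ratios of 1.27 and 1.02 with the hairpins and 0.97 in the control.

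Among the remaining roles, the mitochondrial members were DDX28, a mitoribosome assembly factor, and DHX30, of mitochondrial RNA granules. DDX28 was at 23.8 and 28.5 CPM with the hairpins against 22.6 in the control, a log2 fold change of 0.21 ± 0.18 (SE, edgeR adjusted p = 0.999), and DHX30 at 291 and 304 CPM with the hairpins against 299 in the control. DDX60, induced by interferon in many cells, was at 2.81 and 2.56 CPM with the hairpins and 2.59 in the control. DDX59 was at 22.9 and 24.2 CPM with the hairpins and 21.6 in the control, a log2 fold change of 0.13 ± 0.16 (SE, edgeR adjusted p = 0.999). DHX32 was at 28.6 and 29.5 CPM with the hairpins and 28.1 in the control, and DHX40 at 131 and 142 CPM with the hairpins and 138 in the control. DDX11, an iron-sulfur DNA helicase, was at 99.8 and 90.8 CPM with the hairpins against 88.6 in the control. DDX25, a testis helicase, had 14 and 9 counts with the hairpins and 16 in the control.

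The knockdown libraries were next set against each other, a comparison that does not use the control and has no replicate. The log2 ratio of hairpin 2 to hairpin 1 had an exact interval above 0 for 24 of 44 members and below 0 for 8. Over all genes tested these shares were 22.5% and 20.1%. Interval width depends on the count, so the shares were also taken over genes at a mean of 20 CPM or more, a limit set after the data were seen. Of the 40 members at that level 24 (60%) lay above and 8 (20%) below, beside 41% and 24.5% of the 7793 genes at that level. Their median log2 ratio was 0.11, beside 0.04 for those genes. Over all 30 tested DDX members, a different set, the median was 0.09 as scaled here and 0.05 with scaling by library totals. A change of scaling moves the ratios of other genes too. The median over all genes with library totals is not given here, so 0.05 has no background beside it.

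Ribosome assembly members made up much of the upper end of this ratio. Of the 14 tested, 11 had intervals above 0 and 1 (DDX50) below, with a median log2 ratio of 0.20. Beside this, 60% of all members at a mean of 20 CPM or more and 41% of all genes at that level lay above 0. Their medians were 0.11 and 0.04. DDX49 had 0.43 (0.35 to 0.51), DHX37 0.32 (0.27 to 0.38), DDX52 0.32 (0.19 to 0.45) and DDX21 0.26 (0.24 to 0.28). DDX47 had the lowest ratio of this role, -0.39, with an interval of -1.05 to 0.24 that held 0. The lowest ratio of all was that of DDX25, -0.56, from 9 counts with hairpin 2 and 14 with hairpin 1, with an interval of -2.03 to 0.67. Among members at a mean of 20 CPM or more, the lowest were DHX15 with -0.37 (-0.41 to -0.33), DDX39A with -0.20 (-0.26 to -0.14) and DDX19A with -0.18 (-0.32 to -0.05). The role was one of several looked at and was singled out after its values were seen.

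**Figure D3:**
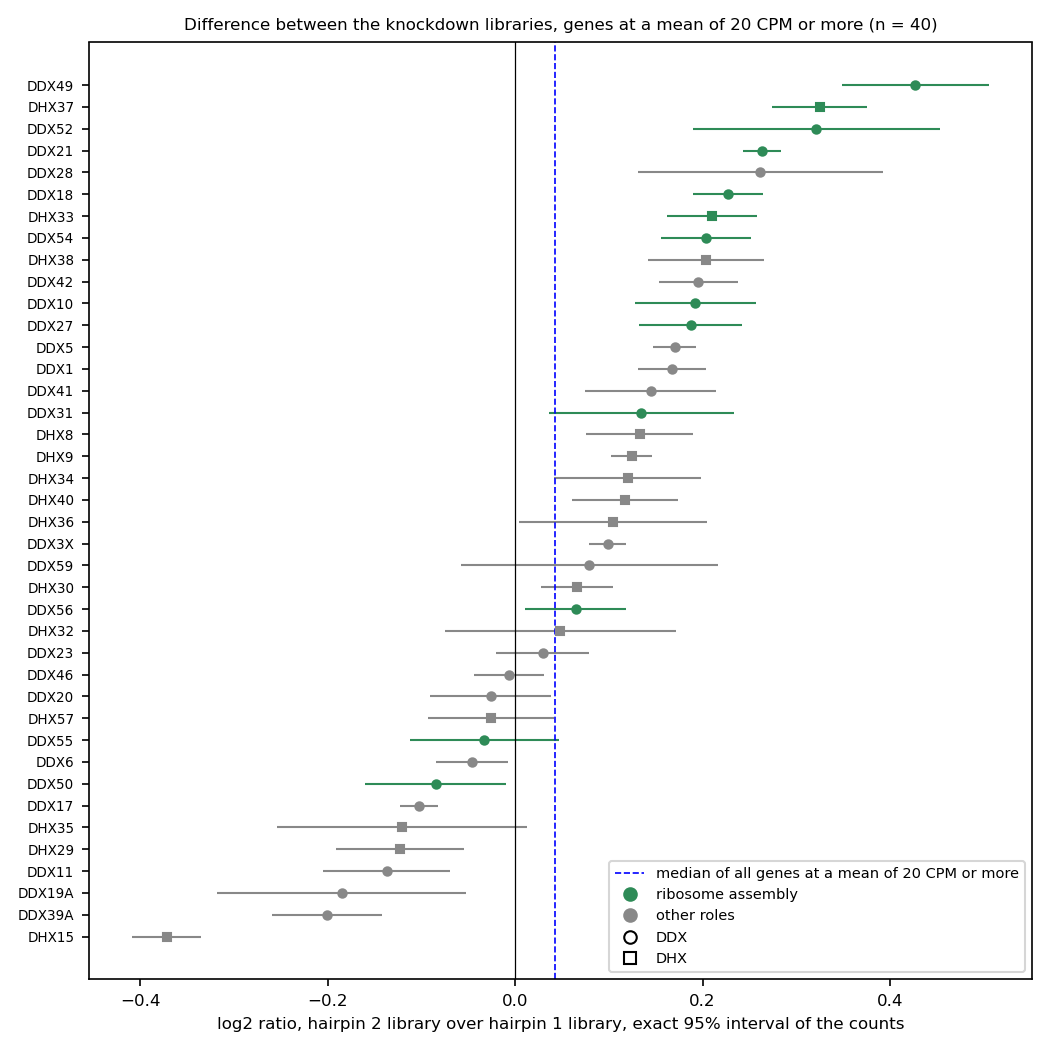
Log2 ratio of the hairpin 2 library over the hairpin 1 library with its exact 95% interval for the 40 genes at a mean of 20 CPM or more, ribosome assembly genes in green, DDX as circles and DHX as squares. The dashed line marks the median of all genes at that level, 0.04; DDX49 lies highest and DHX15 lowest.

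Sequence shared with other genes limits some of these values. Of the 44 tested members 16 shared at least 1 window of 100 bases, the read length, with a transcript of another gene on either strand. DDX47 shared 99.7% of its windows with APOLD1, whose same-strand model spans nearly all of it. APOLD1 held 151 and 110 counts with the hairpins and 214 in the control. DDX19A and DDX19B shared 61.6% and 59.7%, mostly with the overlapping model AC012184.2, which was at 0 in all libraries. DDX11 shared 21.0%, part of it with its pseudogene copy DDX12P. DDX39B, at 0, shared 92.2% with the read-through model ATP6V1G2-DDX39B, also at 0. Among the tested members 28 were overlapped by a gene model on the opposite strand, and since the strand setting of the counting is not given, such reads cannot be told apart.

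**Figure D4:**
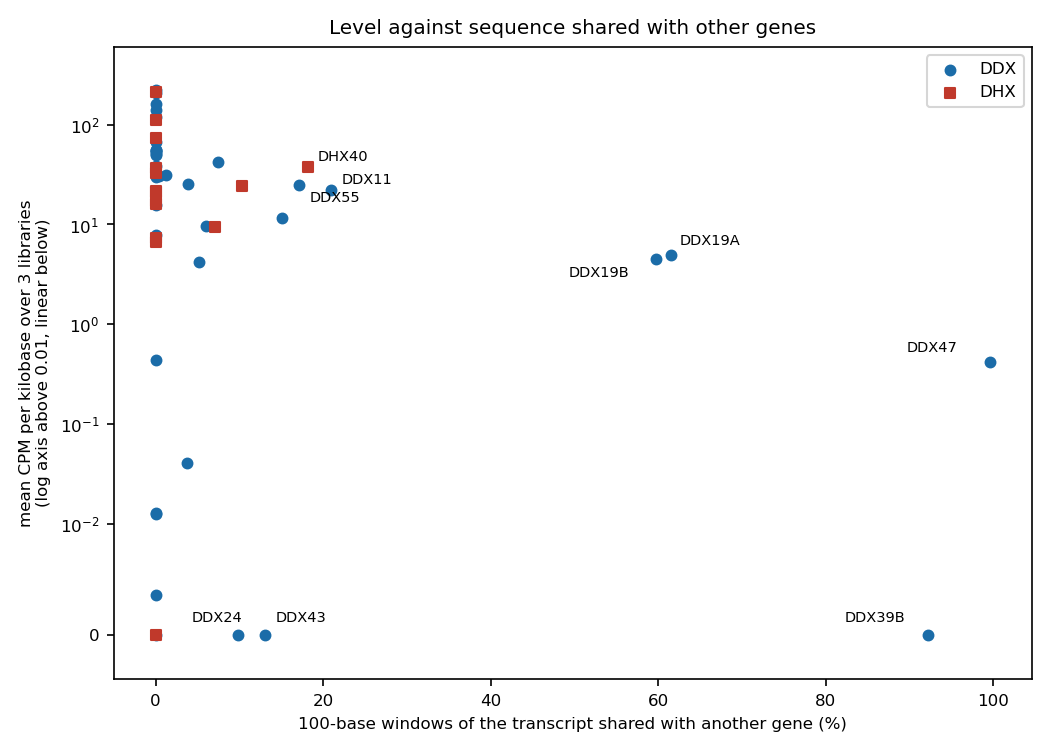
Share of the 100-base windows of each gene's longest coding transcript that occur in another gene's transcript (x axis, %) against its mean level in CPM per kilobase over the 3 libraries (y axis, logarithmic above 0.01). DDX47, DDX19A and DDX19B lie at high shares and low levels, and DDX39B at 0.

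The wider helicase network was described from lists of related genes. The eIF4A proteins are DEAD-box helicases under other symbols, and 0 of 3 passed the test. EIF4A1, the translation initiation helicase, was at 6.30 and 6.01 CPM with the hairpins against 4.66 in the control, from 223 to 246 counts. Sequence shared with other genes was looked for in DDX and DHX members only, so its part in this low value was not tested. EIF4A2, the paralog of EIF4A1, was at 239.7 and 187 CPM with the hairpins against 217.6 in the control. EIF4A3, of the exon junction complex, was at 213 and 227 CPM with the hairpins against 219 in the control. Among 16 other RNA helicases 13 were tested and 0 passed, with 2 higher, 5 lower and 6 mixed with both hairpins. ASCC3, which clears stalled ribosomes, was at 162 and 138 CPM with the hairpins against 200.05 in the control, a log2 fold change of -0.42 with an edgeR unadjusted p of 0.026 and an adjusted p of 0.999. MTREX, the helicase that feeds the nuclear exosome, was at 211 and 219 CPM with the hairpins against 254 in the control, and YTHDC2, which binds methylated RNA, was at 153 and 161 CPM with the hairpins against 174 in the control. All 3 were lower than the control with each hairpin.

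Partners of the helicases did not pass either. Of 19 G-patch proteins and related DEAH partners 3 were higher and 8 lower with both hairpins, with a median log2 fold change of -0.04. ZGPAT was at 2.87 and 2.96 CPM with the hairpins against 3.62 in the control. NKRF, a partner of DHX15, was at 142.4 CPM with each hairpin against 157 in the control, and GPKOW was at 33.7 and 34.6 CPM with the hairpins against 37.7 in the control. Of 24 partners of DEAD-box proteins 23 were tested, 8 higher and 6 lower with both, with a median of 0.03. LSM14A, which binds DDX6, was at 1.43 and 1.78 CPM with the hairpins against 1.10 in the control, from 53 to 66 counts. Its sequence was not searched for shared parts either. EIF4G3, an eIF4A scaffold, was at 195 and 203 CPM with the hairpins against 238 in the control, and MAGOHB, of the exon junction complex, at 55.9 and 59.0 CPM with the hairpins against 50.5 in the control. The median over all genes tested was 0.005.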

How the data were processed

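The authors deposited whole-number read counts per gene model, not normalized, for 3 poly(A)-selected libraries. Per the submitters' processing notes, the tools named are STAR 2.7.3a and DESeq2 1.26 and the build is GRCh38. Which program counted reads, with what strand setting and annotation, is not given in the sources used here. The filter was filterByExpr with a minimum count of 10. The 17713 genes kept were scaled by TMM and tested with edgeR 4.0.16 (R 4.3.3; glmQLFit with legacy = FALSE, glmQLFTest, Benjamini-Hochberg over all genes, threshold 0.05). SE is the log2 fold change over the square root of F. Log2 ratios used a prior count of 2, with 95% intervals from the exact Clopper-Pearson method (counting error only). The floor for genes without counts was 3 counts. The 2 knockdown libraries were compared with 1 control library, and nothing states that cultures were separate, so a p-value reflects differences among these libraries, which may be technical. The scripts were tested on simulated data. Members, roles and lists were chosen with earlier results of these data known. All tested members of short role lists are named with values, the largest shared and between-hairpin ratios in longer lists, full statistics for the 6 DDX and 4 DHX members of smallest p, and up to 3 genes of each related list. Lengths, motif II and shared windows came from GENCODE release 29, matched by gene ID. The box search asked for glycine, any residue, glycine, lysine, then threonine or serine. Asp-Glu, any residue, and Asp or His had to follow, then Ser-Ala-Thr or Thr-Ala-Thr. Each later motif had to lie within a set range of distances from the one before. Alternatives were other scalings, filters, thresholds and prior counts, DESeq2 1.42.0, limma-voom (limma 3.58.1), and each hairpin left out. Values of DDX3Y are not reported.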

Additional observations from a re-analysis of the deposited data

How the results depend on the processing

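The count of members called, 0 lower and 0 higher, was 0 with DESeq2 size factors, library totals, no filter, a filter at 1 CPM in all libraries, DESeq2, limma-voom, the legacy fit and an adjusted p of 0.1. Of all genes tested, library totals called 7, DESeq2 3, limma-voom 1, the legacy fit 1, and DESeq2 size factors and both other filters 0, against 2 as reported. With library totals the median log2 fold change over DDX members was 0.0055, against 0.03, the median log2 ratio averaged over the hairpins was -0.0007964, against 0.03, and the median of hairpin 2 over hairpin 1 was 0.052, against 0.089; this last setting was chosen after seeing the data. With library totals the median shift in log2 fold change was -0.026 over all genes and -0.027 over the members. The shift of the hairpin 2 to hairpin 1 ratio over all genes is not given here. Leaving out a hairpin gave medians of 0.01374 to 0.03817 for DDX and -0.049 to 0.059 for DHX members. At 10 or more counts in every library, 10 members were not countable, against 5. No paired analysis was possible because there was 1 control library and the labels name no pairs. Leaving out hairpin 1 changed the sign of 11 of 44 members and leaving out hairpin 2 that of 9. The cause was not tested.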

Other observations

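Pseudogene copies of the helicases also held counts. DDX12P, an unprocessed copy related to DDX11, was at 28.3 and 26.7 CPM with hairpin 1 and hairpin 2, against 24.6 CPM in the control. The processed copies DHX9P1, DDX50P1 and DDX10P2 held 9, 10 and 15 counts with hairpin 1 and 11, 23 and 13 with hairpin 2, against 17, 18 and 22 in the control. Reads can be divided between a gene and such a copy, so the value of DDX11 is uncertain. The scaffold model of DDX52 held 11 and 14 counts with the hairpins and 11 in the control. The chromosome model of DDX52 held 849 and 1065 counts with the hairpins and 1474 in the control.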
